A study of Mus musculus with 2 samples.

Results

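The genes described here are reelin and the parts of its receptor complex: the ligand gene Reln, the receptor genes Vldlr and Lrp8, and the adaptor gene Dab1. They were taken by name, as every probe set whose only annotated gene symbol was 1 of these. That gave 16 probe sets for 4 of 18193 named genes. The arrays measured 2 samples of a single group, the cerebellar granule cell layer of C57BL/6J mice. The mice were males 8 weeks old, described as intact, with no treatment or engineered allele given. The layer was cut by laser capture from frozen sagittal sections 12 μm thick, and approximately 1 ng of RNA was amplified in 2 rounds and hybridised to Affymetrix arrays. Both titles name animal 1, so the spread between sample 1 and sample 2 may be technical, and nothing is said here of differences between mice. Purkinje cells, which the design text also names, were not analysed here.

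Reelin is a large secreted glycoprotein of the extracellular matrix. It binds the very low density lipoprotein receptor, encoded by Vldlr, and apolipoprotein E receptor 2, encoded by Lrp8. Clustering of these receptors leads Src-family kinases to phosphorylate the adaptor Dab1 on their cytoplasmic tails, and phosphorylated Dab1 recruits Crk proteins and phosphatidylinositol 3-kinase and in the end is degraded. In the cerebellum reelin comes from granule neurons and their precursors, and Purkinje cells, which carry both receptors and Dab1, need it to spread into a single layer. Mice that lack Reln (reeler), Dab1 (scrambler) or both receptors have a small cerebellum with misplaced Purkinje cells.

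The RefSeq promoters of Reln and Lrp8 are shown because the genes differed in detection: Reln had a probe set far above background in both samples, and Lrp8 had none above background in both. Each sequence is the 250 bases before an annotated start, on the gene's own strand and in build GRCm38.p6, with CpG dinucleotides in capitals. For Lrp8, which has 3 such windows, the one with the most CpGs is given. Reln lies at chr5:22344706-22344955 on the minus strand and Lrp8 at chr4:107802635-107802884 on the plus strand.
Reln: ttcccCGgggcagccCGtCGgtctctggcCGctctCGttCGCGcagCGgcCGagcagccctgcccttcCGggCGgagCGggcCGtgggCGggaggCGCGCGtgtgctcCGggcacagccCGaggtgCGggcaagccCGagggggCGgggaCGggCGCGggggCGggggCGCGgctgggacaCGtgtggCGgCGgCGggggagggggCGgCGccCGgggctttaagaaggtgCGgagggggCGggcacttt
Lrp8: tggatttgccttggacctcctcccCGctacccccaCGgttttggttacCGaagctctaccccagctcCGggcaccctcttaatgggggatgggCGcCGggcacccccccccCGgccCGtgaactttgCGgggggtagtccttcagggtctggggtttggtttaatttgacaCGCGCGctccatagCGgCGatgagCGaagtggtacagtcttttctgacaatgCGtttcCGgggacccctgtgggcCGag

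The Reln window was 80.0% G and C and held 37 CpGs, a higher GC content than in 98.8% of 32851 RefSeq windows of the same length, whose median was 52.4%. The GC box GGGCGG, searched on both strands (CCGCCC) with overlaps allowed, occurred 6 times, as often or more often in 0.886% of windows. The Lrp8 window shown was 62.4% G and C with 18 CpGs and no GC box. The box occurred at least once in 32.7% of all windows. Dab1, also on chromosome 4, had a start with a GC content of 78.0%, 40 CpGs and 1 GC box, and another start with 56.4% and 10 CpGs. The starts of Vldlr on chromosome 19 differed more widely in GC content, with 66.4% G and C at one and 41.6% at the other. The richer start had 18 CpGs, as many as the Lrp8 window shown, and 1 GC box, and the other had 5 CpGs and no GC box. All 4 genes thus had a start with a GC content above the median of all windows, and the richest start of Dab1 exceeded 97.9% of them. A gene with several starts has more chances to pass the median, and the share of all genes that did was not counted. The arrays measured RNA, and nothing in them bears on which start was used. Whether base composition goes with detection was not tested.

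An intensity was read against genes typical of other organs, since the table has no detection calls. A probe set is called above background when it exceeded the 95th percentile of 85 such genes in both samples. These thresholds were intensities of 21.1 (sample 1) and 18.9 (sample 2). The probe set with the highest mean stands for its gene. Reln, Vldlr and Dab1 were above background and Lrp8 was not, which is 3 of 4 genes, against 41.0% of all 18193 named genes. A gene with more probe sets has more chances to pass. All 4 genes had at least 2, as had 9010 of the named genes, so shares of genes here and below are not strictly alike. Of the 16 probe sets 7 were above background in both samples, against 27.4% of all 45037. A further 4 passed in 1 sample and 5 in neither. Taken by sample, 8 member probe sets passed in sample 1, beside 14137 of all 45037. In sample 2 it was 10, beside 15220. Intensities depend on the affinity of each probe set and its distance from the 3′ end of the transcript. They are therefore compared between samples and with background, and the 4 genes are not ranked by abundance. In a cut layer, fewer cells of a type and less RNA per cell cannot be told apart.

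**Figure D1:**
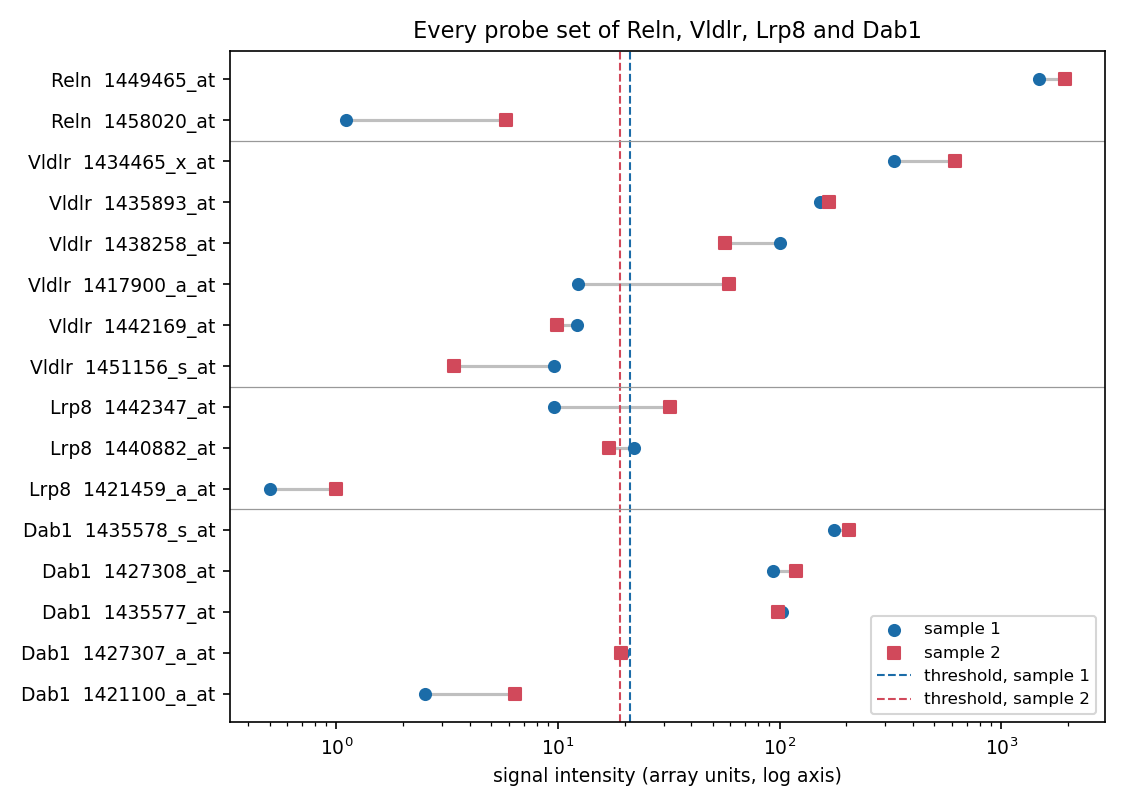
Signal intensity (array units, log axis) of all 16 probe sets of Reln, Vldlr, Lrp8 and Dab1 in sample 1 (circles) and sample 2 (squares), with a grey line joining the samples and dashed lines at the background thresholds of 21.1 and 18.9. Both samples lie right of both lines for 1 probe set of Reln, 3 of Vldlr and 3 of Dab1, and for none of Lrp8.

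The ligand gene Reln gave a strong signal from 1 of its 2 probe sets. Probe set 1449465_at read 1480.6 in sample 1 and 1941 in sample 2, a mean of 1711 ± 326 (SD, n = 2). Both values were far above the thresholds. The difference between the samples, −0.39 on the log2 scale, was wide for so bright a probe set: of 803 probe sets with a mean of 1000 or more, 4.86% differed as much or more, and the SD of the log2 difference among them was 0.19. The other probe set, 1458020_at, read 1.1 and 5.8 and was below background in both samples. The platform annotation gives both the same gene and no probe positions, so which part of the transcript each one reads is unknown here.

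The receptor gene Vldlr had 6 probe sets, and 3 were above background in both samples. The brightest, 1434465_x_at, read 329.3 and 616.5 (473 ± 203, SD, n = 2). Probe set 1435893_at read 152.4 and 167.1 (160 ± 10.4), and 1438258_at read 100.7 and 56.9 (78.8 ± 31.0). All 3 placed Vldlr above background, but they did not give 1 direction between the samples. The log2 difference, sample 1 minus sample 2, was −0.90 for 1434465_x_at, −0.13 for 1435893_at and 0.82 for 1438258_at. Names ending in _x_at mark probe sets in which some probes may also match transcripts of other genes. Without the _x_at and _s_at probe sets 1435893_at represented Vldlr, and the gene's difference moved from −0.90 to −0.13.

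The 3 remaining Vldlr probe sets were not above background in both samples. Probe set 1417900_a_at read 12.3 in sample 1, below the threshold, and 59.0 in sample 2, above it. Against the threshold of sample 1, sample 2 was at least 2.80-fold higher, and by the measured values 5.96% of 9004 probe sets with means from 20 to 100 differed as much or more. Probe set 1442169_at read 12.2 and 9.9, and 1451156_s_at read 9.6 and 3.4, so both were below background in both samples.

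Lrp8, the other reelin receptor gene, lay at the edge of detection. Its 3 probe sets gave no reading above background in both samples. Probe set 1442347_at read 9.6 and 32.0 (20.8 ± 15.8, SD, n = 2) and passed only in sample 2. Probe set 1440882_at read 22.1 and 17.0 (19.6 ± 3.61) and passed only in sample 1. Thus each sample had 1 Lrp8 probe set above its threshold, but not the same one. The third, 1421459_a_at, read 0.5 and 1.0. At the 90th percentile of the same genes, 11.4 and 15.8, 1440882_at passed in both samples. Against olfactory receptor genes as background, 2 of the 3 probe sets passed, and Lrp8 passed as a gene. These values place Lrp8 near background and do not show that its transcript was absent.

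Dab1, the adaptor that docks on both receptor tails, had 5 probe sets with 3 above background. They read within a narrow range and close together in the samples. Probe set 1435578_s_at read 176.8 and 205.1 (191 ± 20.01, SD, n = 2). Probe set 1427308_at read 93.6 and 119.1 (106 ± 18.0), and 1435577_at read 102.4 and 98.4 (100.4 ± 2.83). Their log2 differences were −0.21, −0.35 and 0.06, all smaller than the SD of 0.54 among 4985 probe sets with means from 100 to 1000. Probe set 1427307_a_at read 19.7 and 19.3, just under the threshold of sample 1 and just over that of sample 2. Probe set 1421100_a_at read 2.5 and 6.4, below background in both samples.

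Probe sets of the same gene therefore often gave different answers. Reln, Vldlr and Dab1 each had some probe sets above background and some not, as had 47.2% of the 9010 genes with at least 2 probe sets. The control probe sets of this array cover both ends of a transcript. The 3′ over 5′ ratio of Gapdh was 10.1 in sample 1 and 10.4 in sample 2, and that of Actb was 29.0 and 37.9. The part of distance from the 3′ end in the dim readings of the members was not tested.

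Between the samples, the brightest probe set of each of the 4 genes was higher in sample 2. For Reln, Vldlr and Dab1 the difference was under 2-fold. For Lrp8 the measured values differed by −1.74 on the log2 scale, but the value of sample 1 was below its threshold, and set against that threshold sample 2 was only at least 1.52-fold higher. By the measured values 1 of the 4 genes passed 2-fold toward sample 2, against 12.4% of the 9255 genes above background in 1 sample or both, and none toward sample 1, against 9.96% of those genes. Nothing is read from the Lrp8 call, which was also lost with log2(value + 16) and with the mean of its probe sets. Over all 16 probe sets, 10 were higher in sample 2 and 6 in sample 1. None of the 7 above background in both samples differed by 2-fold or more. Of the remaining 9, which by definition had 1 or both values not above background, 6 differed that much. Among all probe sets, 41.6% with means under 20 and 69.2% with means from 20 to 100 were less than 2-fold apart. Of those with means from 100 to 1000, 93.1% were, and of those at 1000 or more, 100%. Of the same 9255 genes 5069 leaned toward sample 2 and 4174 toward sample 1, with a median log2 difference of −0.07. With 1 array on each side, no difference could be tested.

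**Figure D2:**
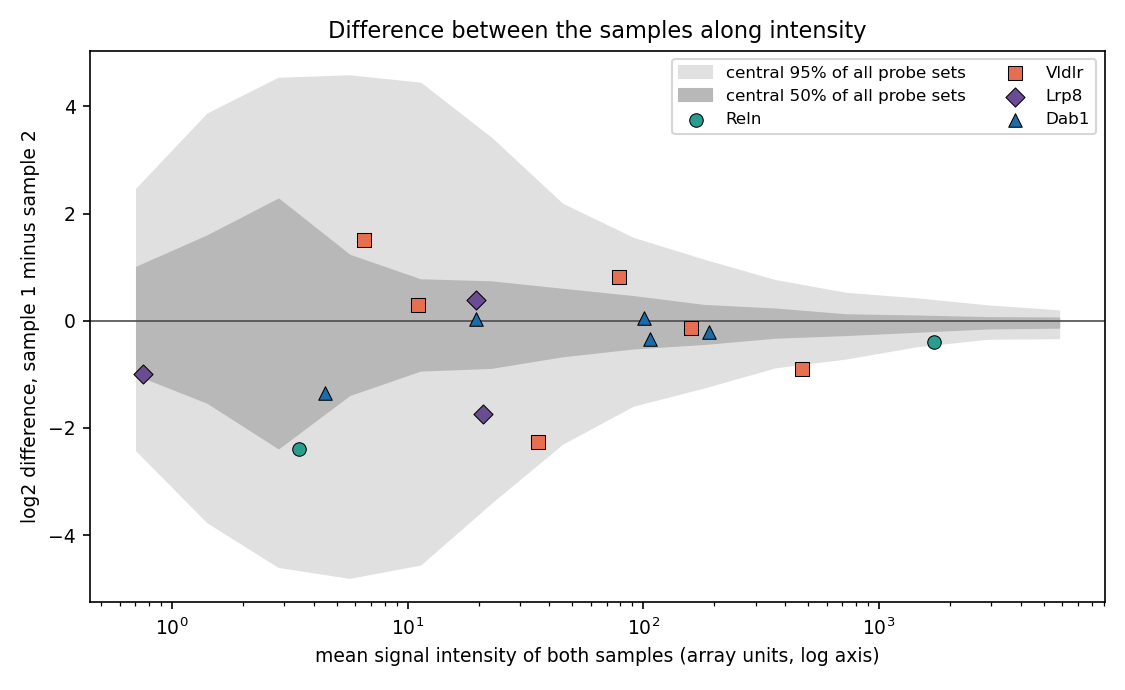
Log2 difference, sample 1 minus sample 2, of the 16 member probe sets against their mean intensity (array units, log axis), over shaded bands that hold the central 50% and 95% of all probe sets in steps of 2-fold in intensity. The bright Reln probe set (−0.39) lies just inside the lower edge of the wide band and Vldlr 1434465_x_at (−0.90) just outside it. The 3 Dab1 probe sets with means of 100 or more lie within or close to the narrow band.

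The layer's identity and its other cells were read from marker lists. Of 15 granule neuron markers 14 were above background, and the exception, Slc17a7, read 18.9 and 22.4. Markers of other cells of the cerebellum are given beside the 41.0% of all named genes that were above background. Of 12 measured Purkinje cell markers 9 passed (75.0%), with Plcb4 at 1799.3 and 1887.1, Pcp4 at 345.7 and 505.0, and Slc1a6 at 4.4 and 8.4. Of 12 astrocyte and Bergmann glia markers 10 passed (83.3%), with Gja1 at 2689 and 2419.2, Glul at 923.7 and 1057.4, and Gdf10 at 16.6 and 6.0. Of 12 Golgi cell and GABAergic interneuron markers 5 passed (41.7%), a share near that of all genes, with Gad1, which is also on the Purkinje cell list, at 303.3 and 214.7, Lgi2 at 256.5 and 256.4, and Kit at 1.3 and 0.5. Of 10 measured oligodendrocyte markers 6 passed, with Mbp at 5722.1 and 5133.1, Cnp at 1646.4 and 1610.3, and Olig2 at 2.9 and 5. Of 10 endothelial and pericyte markers 5 passed, and of 10 microglia markers 3. Of 3 measured unipolar brush cell markers 2 passed, and 1 of these, Calb2, is also on the granule neuron list. The arrays do not say which cells of the layer held the transcripts of Reln, Vldlr, Lrp8 or Dab1.

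The Purkinje cell markers leaned toward sample 2, as did 5069 of the 9255 genes above background in 1 sample or both. The summed intensity of the 12 Purkinje markers was 3492 in sample 1 and 3999.7 in sample 2. Of the 11 above background in at least 1 sample, 8 were higher in sample 2, with a median log2 difference of −0.37, and none of the 12 was at 0. The microglia markers summed to 414 and 612, and the granule neuron markers to 36061 and 36925, both sums also higher in sample 2. By gene counts these lists did not lean that way. Of the microglia markers above background in at least 1 sample, 2 were higher in each sample, with a median log2 difference of 0.21. Among the granule neuron markers 8 were higher in sample 1 and 7 in sample 2, with a median of 0.02. The astrocyte and Bergmann glia markers summed to 5641 and 5498, and the GABAergic interneuron markers to 779 and 704, both higher in sample 1. The oligodendrocyte markers summed to 8096 and 7646, of which Mbp alone gave 5722.1 and 5133.1. The lists differ in length and in probe sets, so their sums are compared between samples and do not rank cell types. The unipolar brush cell markers summed to 1012 and 969, and the endothelial and pericyte markers to 1437 and 1474. The part of these cells in the readings of Reln, Vldlr, Lrp8 and Dab1 was not tested.

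The wider pathway was described from a list of 72 genes that holds the 4 genes above. Of the other 68 genes 64 were measured, and 48 of them (75.0%) were above background, beside 41.0% of all named genes. Many of these genes are expressed in most cells, so the share does not speak of reelin signalling in particular. Among the 55 that passed in 1 sample or both the median log2 difference was −0.03, against −0.07 over all genes.

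Of 5 measured proteases that cleave reelin or activate others, 2 were above background (40.0%), a share near that of all named genes. They were Plat, the tissue plasminogen activator, at 82.1 and 161.3, and the proprotein convertase Furin at 27.1 and 25.8. Adamts3, a metalloprotease that cleaves reelin near its amino end, read 7.4 and 36.1, Adamts4 read 7.6 and 34.3, and Adamts5 read 25.2 and 4.6. All 3 passed in 1 sample and not in the other. Of 6 genes listed as further ligands 3 were above background. Clu, a secreted chaperone and apolipoprotein, read 2824.7 and 2982.3, and the selenium carrier gene Selenop read 1016.8 and 979.1. Thrombospondin 1, encoded by Thbs1, read 0.4 and 9.7. The coagulation factor gene F5, listed there in error, was left in the count and was below background.

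Partners at the cell surface and genes of receptor turnover were mixed. Of 7 surface partners 4 were above background, with the amyloid precursor gene App at 2389.2 and 2485 and the N-cadherin gene Cdh2 at 97.9 and 67.3, while the ephrin gene Efnb2 read 4.5 and 10.8. Of 5 measured genes of receptor turnover 4 passed. The sorting nexin gene Snx17, which recycles receptors of this family, read 2837 and 2775.3. Lrpap1, a chaperone that escorts them through the secretory pathway, read 1506.6 and 1517.2. The convertase gene Pcsk6 read 2.2 and 2.6. The log2 difference between the samples was −0.06 for App, 0.03 for Snx17 and −0.01 for Lrpap1.

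Inside the cell, most listed effectors were above background. Of the 3 Src-family kinase genes, Fyn read 178.9 and 253.2 and Yes1 35.3 and 32.1, and Src itself was below background at 18.8 and 16.3. All 5 genes of the Crk and Rap1 branch passed. The small GTPase genes Rap1a and Rap1b read 452.8 and 575.6, and 435.9 and 377, and Rapgef1, an exchange factor for Rap1, read 44.3 and 98.9. In the branch of phosphatidylinositol 3-kinase, Akt and GSK3, 7 of 9 measured genes passed, with the catalytic subunit gene Pik3ca at 196.5 and 317.7 and the kinase gene Gsk3b at 203.0 and 267.7. The catalytic subunit gene Pik3cb read 14.6 and 33.2 and passed only in sample 2.

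Cytoskeletal effectors were almost all above background, with 12 of 13. The actin-severing cofilin gene Cfl1 read 3809.7 and 3970.1, and Wasl, which drives branched actin assembly, read 1970 and 1915.2. The exception was Dcx, the microtubule-binding protein gene of migrating young neurons, at 6.7 and 11.0. The 3 genes of the kinase Cdk5, which acts in parallel to reelin in neuronal migration, passed: the activator genes Cdk5r2 (113.9 and 74.7) and Cdk5r1 (99.1 and 66.1), and Cdk5 (44.1 and 21.8). All 3 were higher in sample 1, as were 4174 of the 9255 genes above background in 1 sample or both.

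Of 5 genes that bind Dab1 or take part in its degradation 4 passed, among them Socs7 (1154.3 and 1213.8) and the ubiquitin ligase subunit gene Rnf7 (461.3 and 628.9), while Socs3 read 12.6 and 1.7. Of 3 postsynaptic partners 2 passed, the JNK scaffold genes Mapk8ip2 (397.9 and 443.2) and Mapk8ip1 (103.4 and 76.2), which bind the Lrp8 tail. Dlg4, the gene of the scaffold PSD-95, read 14.3 and 12.5.

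**Figure D3:**
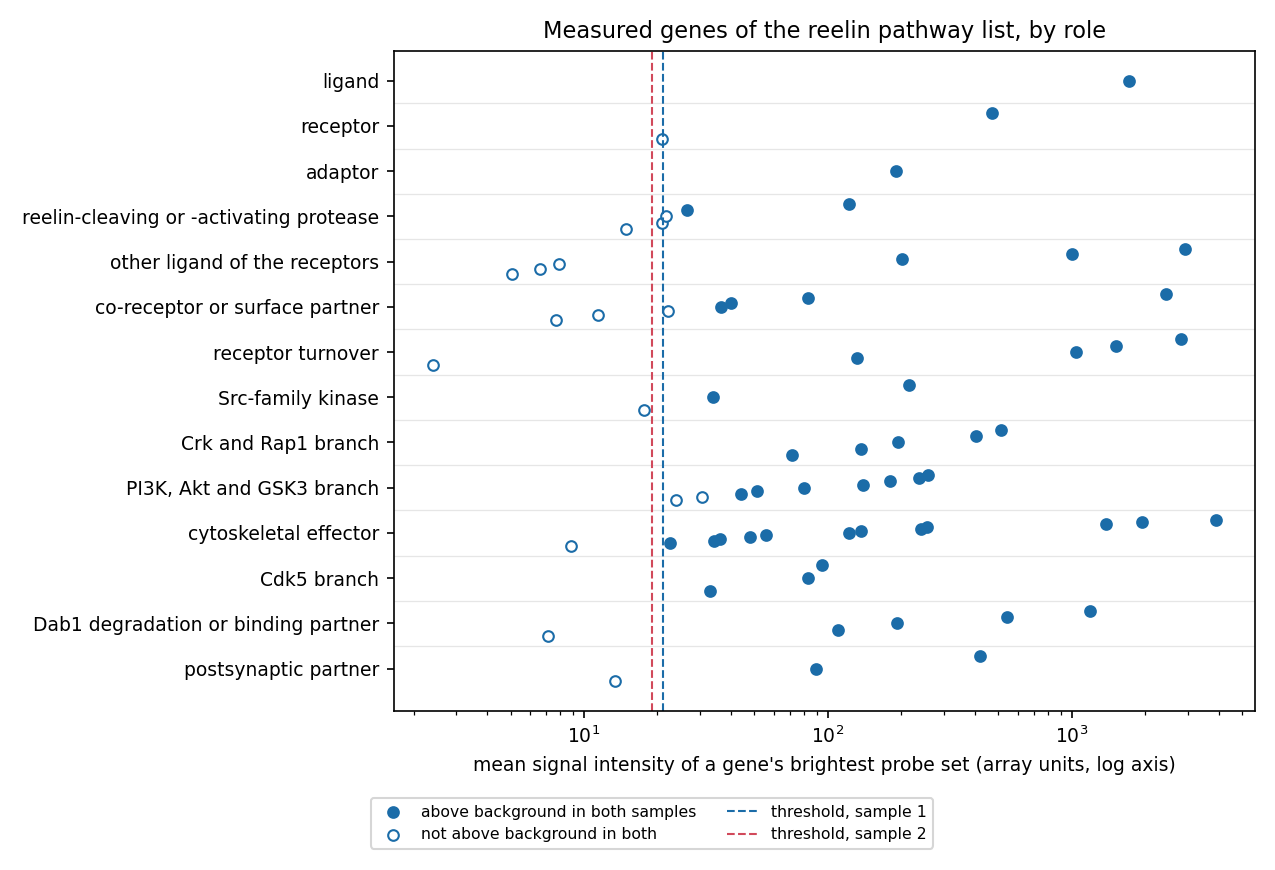
Mean intensity over both samples (array units, log axis) of the brightest probe set of each of the 68 measured genes of the reelin pathway list, in rows by role, with filled points for genes above background in both samples and dashed lines at the thresholds. Filled points make up 51 of the 68, and the 17 open points include 3 of 5 proteases, 3 of 6 further ligands and 3 of 7 surface partners.

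Vldlr and Lrp8 belong to the low density lipoprotein receptor family, endocytic receptors with shared ligand-binding repeats. Of 15 measured family members 7 were above background (46.7%, beside 41.0% of all named genes). Of the 6 core receptors 2 passed, Vldlr and the large endocytic receptor gene Lrp1, at 77.6 and 50.3. Lrp2, the megalin gene, read 3.2 and 7.9, below background in both samples. Of the Wnt co-receptors Lrp6 (31.4 and 23.3) passed and Lrp5 (2.3 and 0.6) did not. Of 7 more distant relatives 4 passed. Sorl1, a sorting receptor of neurons, read 2162.4 and 2065.7 and Lrp11 read 245.3 and 196.8. Lrp3 read 1.8 and 11.0.

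**Figure D4:**
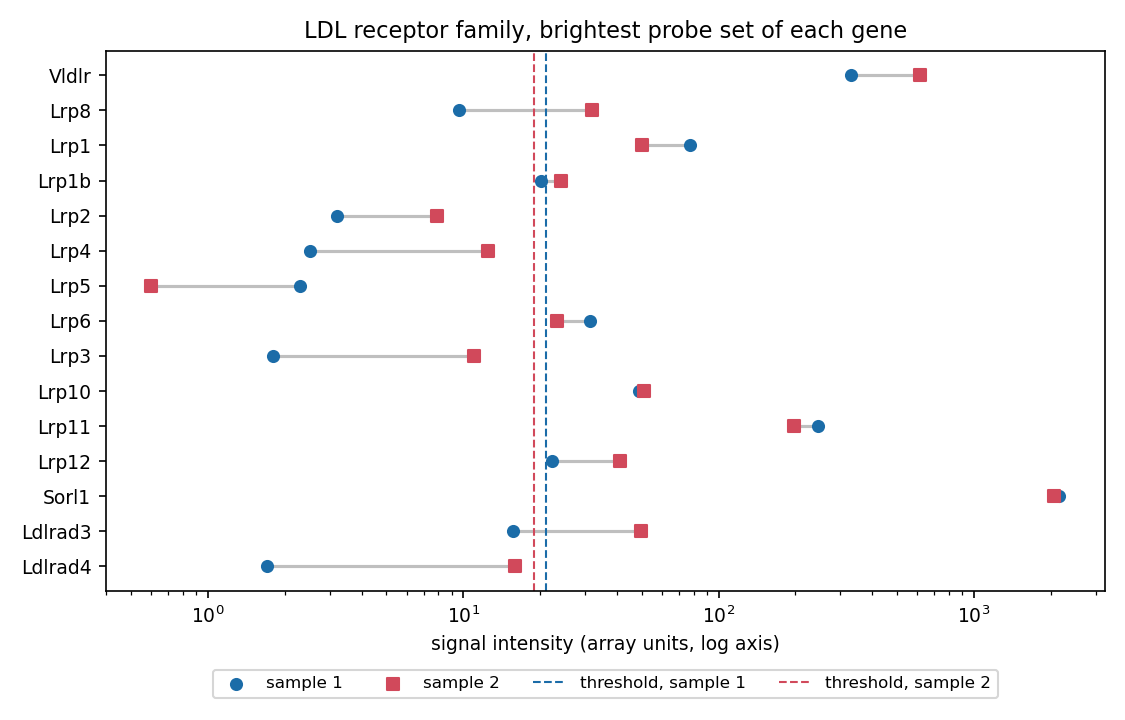
Signal intensity (array units, log axis) of the brightest probe set of each of the 15 measured genes of the low density lipoprotein receptor family in sample 1 (circles) and sample 2 (squares), with dashed lines at the background thresholds. Both samples lie right of both lines for 7 genes, among them Vldlr. The samples of Lrp8 lie on opposite sides of the lines, as do those of Ldlrad3 (15.6 and 49.7).

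Dab1 is one of a class of adaptors that bind receptor tails through a phosphotyrosine-binding domain. Of 11 measured genes on that list 8 were above background (72.7%, beside 41.0% of all named genes). Dab2, the relative of Dab1, read 7.5 and 9.9 and was below background in both samples. Of the 9 measured other adaptors 7 passed. They included Apbb1, an adaptor of the amyloid precursor protein, at 248.3 and 289.6, and Numb, a regulator of endocytosis and Notch signalling, at 159.2 and 189.3. Gulp1, an engulfment adaptor, read 13.2 and 8.7. None of the 8 differed by 2-fold or more between the samples.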

How the data were processed

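Signal intensities on a linear scale, 1 per probe set and array, were used as the authors deposited them. They were made with GCOS, Affymetrix's array software, per the submitters' processing notes. Its version and any scaling were not given in the sources used here, and the 2 medians were 7.9 and 8.3. Of 45101 probe sets, 64 were controls, 34958 had 1 gene symbol in the platform's annotation (34754 matched to RefSeq by gene ID), 932 had several, and 9211 were not listed and stayed unnamed. No further scaling was applied, and zeros (2 and 1) were set to 0.1 before log2.

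The background list held 94 genes typical of other organs, 85 of them measured, and 3 of these exceeded the threshold in both samples. Named were every member probe set and, per role, the 2 brightest genes and the dimmest one. Adamts3, Adamts4, F5 and Slc17a7 were added after their values were seen. The members and lists were chosen with earlier results of these data known. With 1 group of 2 samples no test was possible; the number of arrays limits the precision. The 2-fold rule was tried on simulated data with intensities well above background only, so not in the range of Lrp8. For the background rule only the calculation of the percentile was checked. Python 3.11.15, pandas 2.3.3, numpy 2.4.6 and matplotlib 3.10.9 were used. Alternatives covered the threshold, background genes, array scaling, probe set choice, pseudocount and each sample alone.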

Additional observations from a re-analysis of the deposited data

How the results depend on the processing

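Reln, Vldlr and Dab1 were above background under every alternative run. Lrp8 as a gene joined them only against olfactory receptor genes and in sample 2 alone. Its second brightest probe set, 1440882_at, which does not stand for the gene, also passed at the 90th percentile and in sample 1 alone. The counts rested most on the 99th percentile threshold, 145 and 132 in samples 1 and 2. With it 4 member probe sets passed, and 25 reelin pathway genes, 3 receptor family genes, 3 adaptor genes and 33 of the 52 cell type markers. Over all features 2793 genes and 4038 probe sets passed, and 242 of the 2065 genes at least 2-fold apart were left. Against olfactory receptor genes 12 member probe sets passed and 3546 genes were at least 2-fold apart. The latter count was 985 with log2(value + 16) and 7058 with no background filter. The count of members at least 2-fold apart was 0 at the 99th percentile, with log2(value + 16) and when probe sets were averaged. Averaging a gene's probe sets lowered the intensity of Reln to 857, of Vldlr to 127 and of Dab1 to 84.3. Without _x_at and _s_at probe sets the difference of Vldlr was −0.13. Each sample alone gave 3 to 4 member genes and 8 to 10 member probe sets above background. A threshold from all probe sets of the background genes, chosen after seeing the data, kept 7. The causes of these changes were not tested. Near the threshold the arrays' signal over background limits what can be said, above all of Lrp8.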
